A study of Mus musculus with 16 samples.

Results

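The genes described here encode the subunits of the standard proteasome and the assembly chaperones that share their names. They were chosen by gene name, as every Psma, Psmb, Psmc or Psmd gene with a number on the array, leaving out the interferon-inducible subunits Psmb8, Psmb9 and Psmb10. The rule uses names and no measured value, but it was set with earlier results of these data known. This gave 36 of 34763 genes and 44 of 55681 non-control probes. Gene expression was read on 16 one-colour (Cy3) Agilent arrays of total RNA from primary mouse lung fibroblasts, which had been cultured and passaged before use and were collected 48 hours after transfection with a small interfering RNA (siRNA). In the siLox group the siRNA was directed against Lox, in siLoxL1 against Loxl1 and in siLoxL2 against Loxl2, and the scr group received a scrambled control siRNA, with 4 arrays in each group. The title of the series speaks of exogenous expression of these genes, whereas the labels of the samples describe siRNA, and the labels are followed here. All groups had been transfected, and no untransfected cells were included. The strain, sex and age of the animals are not given in the sources used here, nor is whether the replicates were separate cultures, so that p-values measure only the spread between these samples, which may be technical.

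The proteasome is the main protease of the cytosol and nucleus and degrades proteins marked with ubiquitin. Its core, the 20S particle, is a barrel of outer alpha rings, which gate the entry, and inner beta rings, of which the subunits Psmb5, Psmb6 and Psmb7 carry the protease sites. The regulatory 19S particle caps the barrel. It has a base, with a ring of ATPases (Psmc1 to Psmc6) that unfold the substrate, and a lid, with the enzyme Psmd14 that removes ubiquitin. Under interferon, Psmb8, Psmb9 and Psmb10 replace the standard protease subunits. The transcription factor Nfe2l1 is known to raise proteasome genes together when proteasome activity is lacking. Lox, Loxl1 and Loxl2, the targets of the siRNAs, encode lysyl oxidases, secreted enzymes that link collagen and elastin fibres.

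The 8 arrays of siLox and scr shared slide 1 and the 8 arrays of siLoxL1 and siLoxL2 shared slide 2, with each group in a row of its own. On slide 1, 49.2% to 52.3% of the spots passed the scanner's flag for signal above background, and on slide 2, 60.4% to 63.1% did. Only siLox against scr and siLoxL1 against siLoxL2 lie within a slide. In siLoxL1 against scr and siLoxL2 against scr, group and slide cannot be told apart. Levels are log2 intensities, with the 75th percentile of each array set to 0. Lox averaged 1.14 in siLox and 4.07 in scr, but the siLox arrays differed (0.39, 0.89, 1.25 and 2.04 on replicates 1 to 4). Loxl1 averaged 4.60 in siLoxL1 and 5.58 in scr. Loxl2 averaged 5.38 in siLoxL2 and 6.45 in scr, but it was also low in siLoxL1 (5.69), and within slide 2 the difference of siLoxL1 from siLoxL2 missed the threshold (limma adjusted p = 0.055). In siLox, Loxl1 (5.09) and Loxl2 (5.73) were also lower than in scr. All 9 fibroblast markers examined were detected. Of 6 epithelial markers, Krt8 and Krt18 were above background on 16 of 16 arrays and Scgb1a1 on 14, and Epcam, Cdh1 and Sftpc on 0. Of 7 leukocyte and macrophage markers tested, Cd79a was above background on 14 arrays and the others on 16. Of 4 endothelial markers, Pecam1 and Kdr were above background on 16 arrays, Cdh5 on 14 and Tek on 7. In bulk RNA, fewer cells of a type and less RNA per cell cannot be told apart.

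Of the 36 genes, 34 were detected and tested, and these 34 were well above background on 16 of 16 arrays, as were 79.8% of all 22644 genes tested. The exceptions were the tissue-restricted core genes: Psma8, an alpha subunit of the testis, was above background on 1 array, and Psmb11, the beta subunit of the thymus, on 0. The detected genes were 7 of the alpha ring, 7 of the beta ring, 6 ATPases and 3 other subunits of the base, 8 subunits of the lid and 3 assembly chaperones of the 19S particle (Psmd5, Psmd9 and Psmd10). Replicates lay close together. The median SD of a gene within a group was 0.064 in siLox, 0.064 in siLoxL1, 0.058 in siLoxL2 and 0.071 in scr on the log2 scale, beside 0.132, 0.0928, 0.0899 and 0.167 over all genes in the same groups. The 34 genes and all genes were not matched for signal level. Psmd10, a chaperone of the base also known as gankyrin, varied most among the 34 genes in scr (SD 0.25, n = 4) and in siLoxL1 (SD 0.15, n = 4). Levels of different genes are not compared, because probes differ in their response.

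With the Lox siRNA, the lid gene Psmd7 and the core gene Psmb2 were higher than with the scrambled siRNA, the core gene Psmb3 and the ATPase gene Psmc6 were slightly lower, and the other 30 genes did not pass the test. Psmd7 stood at 1.65 times the scr level and Psmb2 at 1.34 times. Psmb3 stood at 86.8% and Psmc6 at 87.7% of the scr level. The 4 genes called are 11.8% of the 34, against 25.0% of all genes called in this comparison (11.5% higher and 13.5% lower). The median log2 fold change of the 34 genes was −0.02, beside −0.05 over all genes. Their median absolute change was 0.0998, beside 0.231 over all genes, again without matching for signal level.

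Psmd7 encodes a structural lid subunit that pairs with the deubiquitinase Psmd14. It was read by a single probe. Its log2 level was 4.57, 4.56, 4.48 and 4.45 in siLox, against 3.66, 3.71, 3.87 and 3.90 in scr. The groups did not overlap, and all siLox arrays stood more than the whole scr range above the scr arrays. The log2 fold change was 0.73 ± 0.07 (SE, n = 4 arrays per group, limma adjusted p = 0.0025), and 1 of the 34 genes reached a change of 0.5. Leaving out each of the 8 arrays in turn kept the call (adjusted p 0.0029 to 0.015). Over all 18 other settings the adjusted p ran between 2.38e-06 and 0.069, and the setting that lost the call took the replicate number as a block.

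Psmb2 encodes a beta subunit without a protease site. It was read by a single probe, on chromosome 4 of build mm9 at chr4:126361456-126364299 on the + strand. That span is longer than the 60 bases of the probe, so the probe crosses an exon junction and reads spliced RNA. It is shown because the call rests on this probe alone.
Psmb2 probe: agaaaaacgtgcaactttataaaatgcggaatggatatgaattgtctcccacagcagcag
The log2 level of Psmb2 was 2.32, 2.41, 2.51 and 2.62 in siLox, against 2.11, 2.19, 2.03 and 1.82 in scr. The groups did not overlap, and scr replicate 4 was lowest. The fold change was 0.42 ± 0.10 (SE, limma adjusted p = 0.024). The call was lost without siLox replicate 2 (adjusted p = 0.058), without siLox replicate 3 (0.069) and without scr replicate 3 (0.066), and it held in 14 of 18 other settings, in which the adjusted p ran between 0.00079 and 0.12.

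Psmb3, a structural beta subunit also read by a single probe, had log2 levels of 6.23, 6.38, 6.38 and 6.34 in siLox, against 6.46, 6.58, 6.53 and 6.57 in scr. The groups did not overlap, and the fall was 0.20 ± 0.06 (limma adjusted p = 0.043). Psmc6, an ATPase of the base, had log2 levels of 4.08, 4.10, 4.09 and 4.08 in siLox, against 4.27, 4.30, 4.33 and 4.20 in scr. The 4 siLox arrays were nearly equal (SD 0.0081) and all lay below scr, and the fall was 0.19 ± 0.05 (limma adjusted p = 0.035). The Psmc6 probe matches an unbroken stretch at chr14:45968533-45968592 (mm9, + strand), and is shown for the same reason.
Psmc6 probe: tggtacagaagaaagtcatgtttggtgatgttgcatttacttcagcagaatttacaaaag
Both small falls were fragile. Psmb3 kept its call in 6 of 18 other settings, with an adjusted p of at most 0.13, and with one array left out it was called only without scr replicate 1 (0.048; 0.060 to 0.10 without any other array). Psmc6 kept its call in 8 of 18, with an adjusted p of at most 0.18, and with one array left out only without scr replicate 4 (0.019; 0.060 to 0.098 otherwise).

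**Figure D1:**
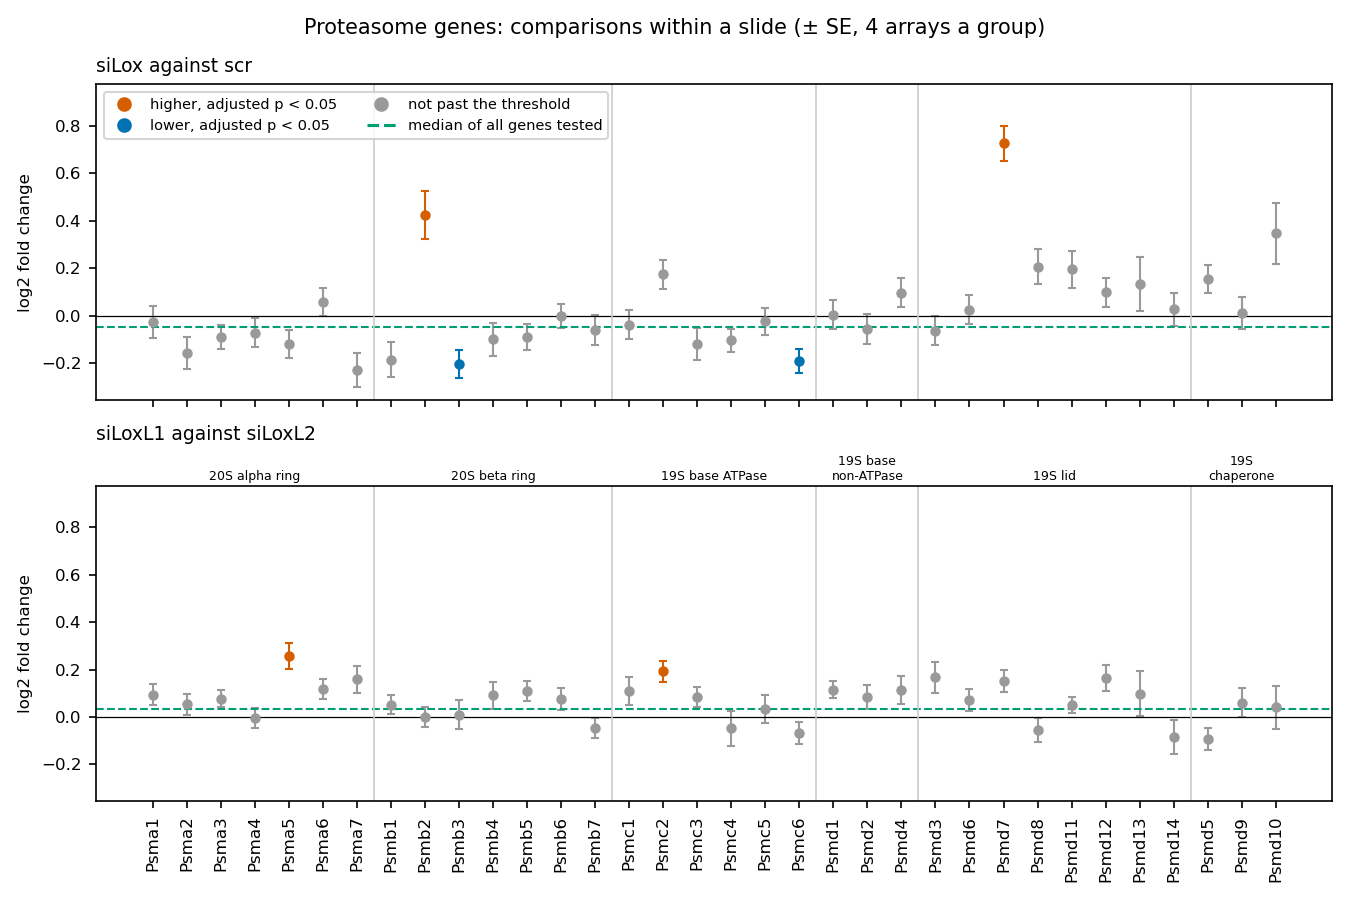
Log2 fold change (± SE, 4 arrays a group) of the 34 detected genes, by place in the particle, for siLox against scr (top) and siLoxL1 against siLoxL2 (bottom); colour marks the limma call and the dashed line is the median of all genes. Psmd7 (0.73) and Psmb2 (0.42) stand apart in the top panel, and in the bottom panel 27 of 34 genes lie above 0, with Psma5 (0.26) highest.

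Beyond these calls, the core genes lay lower than the regulatory genes in siLox against scr. Of 14 core genes 2 had a positive fold change (5 with quantile normalization), and of 20 regulatory genes 13 did (15 with quantile normalization). The median was −0.09 in the core and 0.03 in the regulatory genes, and it kept its sign in both under 4 other scalings. With single arrays left out the core median stayed negative, but the regulatory median did not keep its sign. It was −0.0021 without scr replicate 1 and 0.0054 without siLox replicate 2, each with 10 of 20 regulatory genes positive. In the alpha ring 0 of 7 genes were called, with fold changes between −0.23 and 0.06. Psma7, at −0.23 ± 0.07, had the lowest value of the 34 genes and missed the threshold (limma adjusted p = 0.052). Of the 6 ATPases of the base 1 was positive, with a median of −0.07, and the 3 other base subunits had a median of 0.0041. In the lid 7 of 8 genes were positive and 1 was called, with Psmd8 at 0.21 ± 0.07 and Psmd11 at 0.20 ± 0.08 below the threshold (adjusted p = 0.072 and 0.097). The 3 chaperones were positive and 0 of them were called, with Psmd10 at 0.35 ± 0.13 (adjusted p = 0.083). The mean log2 level of the core genes minus that of the regulatory genes was 0.543, 0.578, 0.607 and 0.650 on siLox replicates 1 to 4. On scr replicates 1 to 4 it was 0.821, 0.743, 0.731 and 0.650. The Lox level also rose from replicate 1 to 4 in siLox, and whether these orders are linked was not tested. The highest siLox value and the lowest scr value, both from replicate 4, were equal to 3 digits. The mean fold change was −0.06 over the core and 0.08 over the regulatory genes, a difference of −0.14. It ran between −0.19 and −0.11 over 19 other settings, namely the 18 used for single genes and one without Psmd7 and Psmb2 (−0.15). This contrast was chosen after the values were seen and was not tested.

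The number of calls in siLox against scr depended on single arrays. Of the 34 genes, 2 passed without siLox replicate 1, 1 without siLox replicate 2, 1 without siLox replicate 3, 2 without scr replicate 2, 1 without scr replicate 3 and 7 without scr replicate 4. With quantile normalization 3 were higher and 1 was lower, against 2 and 2 as reported. At an unadjusted p under 0.05 there were 12 of the 34, beside 9407 of all 22644 genes. The groups did not overlap in 5 genes with the siLox arrays above and 5 with them below, 10 of 34, where 30.6% of all genes did not overlap in either direction. Of the 9 fibroblast markers 4 were lower in siLox (Thy1 by 0.84, Pdgfrb by 0.79, Col1a2 by 0.46 and Vim by 0.25). Of all genes 13.5% were lower and 11.5% higher. The mean level of the 9 markers was 4.06 to 4.83 on the siLox arrays and 4.77 to 5.20 on the scr arrays. Of the 3 epithelial markers tested Krt8 was higher in siLox (0.27), and Krt18 (−0.36) and Scgb1a1 (−0.24) were not called. The mean level of these 3 was −0.59 to −0.45 on the siLox arrays and −0.66 to −0.29 on the scr arrays. Of 7 leukocyte and 4 endothelial markers 0 were called, with median fold changes of 0.33 and −0.32. The mean level of the 7 leukocyte markers was −0.69 to −0.45 on the siLox arrays and −1.08 to −0.45 on the scr arrays. The part of these markers in the results was not tested.

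The protease subunits did not pass the test in siLox against scr. Psmb5, which cleaves after hydrophobic residues, had log2 levels of 7.03, 7.11, 7.14 and 7.16 in siLox, against 7.19, 7.23, 7.15 and 7.22 in scr (−0.09 ± 0.05, limma adjusted p = 0.24). Psmb6, which cleaves after acidic residues, had 6.68, 6.73, 6.73 and 6.70 in siLox, against 6.67, 6.74, 6.67 and 6.75 in scr (−0.0022 ± 0.05, adjusted p = 0.98). Psmb7, which cleaves after basic residues, had 4.56, 4.52, 4.54 and 4.50 in siLox, against 4.47, 4.68, 4.54 and 4.67 in scr (−0.06 ± 0.06, adjusted p = 0.51). For each of the 3 genes the groups overlapped.

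Promoter sequence was at hand for 29 of the 36 genes, as 250 bases before and 50 after the transcription start (RefSeq, GRCm38.p6). The antioxidant response element, which Nfe2l1 and Nfe2l2 are known to bind, was searched in its core form TGACNNNGC on both strands. A gene with several promoters was counted when any of them held the motif. The element occurred in 5 of the 29 (17.2%), namely Psmb5, Psmb6, Psmc6, Psmd12 and Psmd9, and in 13.99% of all 27025 genes with a promoter. The CCAAT box, searched as CCAAT on both strands, occurred in 12 of the 29 (41.4%) and in 41.1% of all genes with a promoter. Both shares were close to those of all genes with a promoter of that length. The 250 bases before the start are shown for the protease genes Psmb5 (chr14:54617996-54618245, − strand) and Psmb6 (chr11:70525107-70525356, + strand), whose element lies close to the start. Capitals mark the element, which begins at position −47 from the start in Psmb5 and at −9 in Psmb6.
Psmb5 promoter: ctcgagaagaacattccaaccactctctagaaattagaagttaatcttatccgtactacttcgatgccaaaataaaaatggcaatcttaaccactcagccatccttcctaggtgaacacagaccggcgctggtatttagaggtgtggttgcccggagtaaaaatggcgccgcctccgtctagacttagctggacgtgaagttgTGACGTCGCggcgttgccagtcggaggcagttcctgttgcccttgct
Psmb6 promoter: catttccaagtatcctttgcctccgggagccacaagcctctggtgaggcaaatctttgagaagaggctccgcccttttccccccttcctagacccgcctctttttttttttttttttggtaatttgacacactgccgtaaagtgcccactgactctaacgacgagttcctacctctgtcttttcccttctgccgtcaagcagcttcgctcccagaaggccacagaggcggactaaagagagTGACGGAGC
A match of these letters is not evidence of binding. Of the 5 genes with the element, only Psmc6 was called in siLox against scr, and it was lower there.

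With the Loxl1 siRNA, 2 of the 34 genes were higher than with the Loxl2 siRNA and 0 were lower, the alpha ring gene Psma5 (1.20 times) and the ATPase gene Psmc2 (1.14 times). That is 5.88% of the 34 genes, against 8.80% of all genes called (6.10% higher and 2.70% lower). Most of the genes leaned the same way by small amounts: 27 of 34 had a positive fold change, 24 of 34 lay above the median of all genes, and their median was 0.08, beside 0.03 over all genes. The lean was weaker with quantile normalization. There 9 of 14 core genes and 13 of 20 regulatory genes were positive, and the median was 0.027, beside 0.020 over all genes. In 10 genes the groups did not overlap, each with siLoxL1 above, where 20.3% of all genes did not overlap in either direction. At an unadjusted p under 0.05 there were 9 of the 34, beside 6141 of all 22644 genes.

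Psma5, a subunit of the alpha ring, had log2 levels of 5.31, 5.44, 5.45 and 5.30 in siLoxL1, against 5.03, 5.15, 5.18 and 5.11 in siLoxL2. The groups did not overlap, and the fold change was 0.26 ± 0.05 (SE, n = 4 arrays per group, limma adjusted p = 0.029). Psmc2 had 6.40, 6.50, 6.51 and 6.47 in siLoxL1, against 6.20, 6.28, 6.30 and 6.33 in siLoxL2, again without overlap (0.19 ± 0.05, adjusted p = 0.039). A second Psmc2 probe, which shares 50 bases with the first, gave 0.14 (adjusted p = 0.26 over all probes). Psma5 kept its call in 10 of 18 other settings, in which the adjusted p ran between 0.014 and 0.12, and Psmc2 in 4 of 18, between 0.021 and 0.14. Without siLoxL1 replicate 2, siLoxL1 replicate 3 or any one siLoxL2 array, 0 of the 34 genes passed in limma, with 6 to 10 at an unadjusted p under 0.05, and without siLoxL1 replicate 4 only Psma5 passed. Of the markers of fibroblasts (9 tested) and of epithelial cells (3 tested) 0 were called here, and of 7 leukocyte and 4 endothelial markers 1 each was lower (Cd68 and Tek). Of all genes 8.80% were called.

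The protease subunits again missed the threshold. Psmb5 had log2 levels of 7.67, 7.69, 7.67 and 7.65 in siLoxL1, against 7.49, 7.61, 7.60 and 7.54 in siLoxL2, without overlap (0.11 ± 0.04, limma adjusted p = 0.13). Psmb6 had 6.91, 6.98, 6.96 and 6.94 in siLoxL1, against 6.77, 6.91, 6.87 and 6.94 in siLoxL2 (0.08 ± 0.05, adjusted p = 0.32). Psmb7 had 4.40, 4.38, 4.44 and 4.46 in siLoxL1, against 4.38, 4.51, 4.50 and 4.47 in siLoxL2 (−0.05 ± 0.04, adjusted p = 0.52). Psmd7 and Psmb2, the genes that were higher in siLox than in scr, differed by 0.15 ± 0.05 and 0.0013 ± 0.042 between siLoxL1 and siLoxL2, with adjusted p of 0.085 and 0.99.

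**Figure D2:**
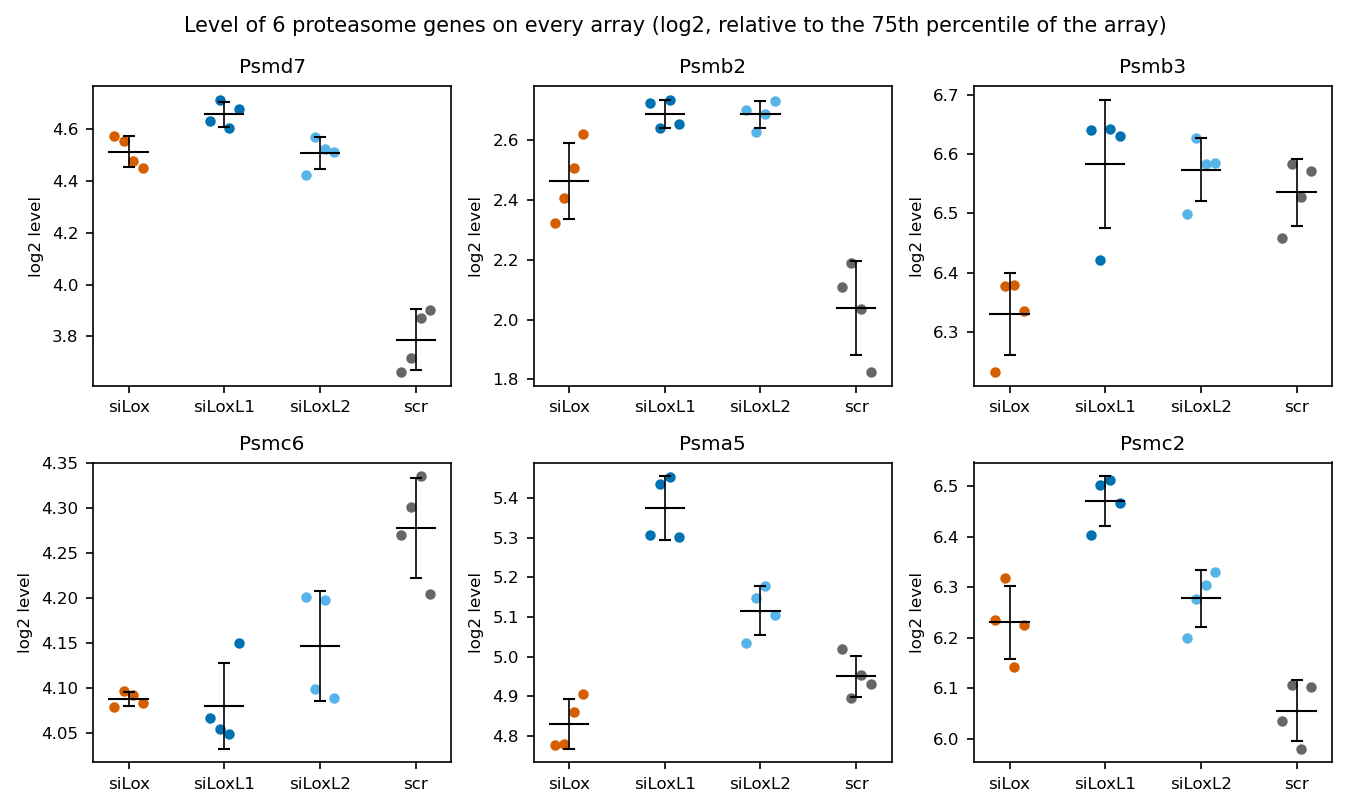
Log2 level of Psmd7, Psmb2, Psmb3, Psmc6, Psma5 and Psmc2 on each of the 16 arrays, with each array's 75th percentile at 0; points are arrays, bars are mean ± SD (n = 4), and each panel has its own axis. Psmd7, Psmb2 and Psmc2 lie lower on all 4 scr arrays than on the other 12, and siLox (left) and scr (right) come from slide 1 while siLoxL1 and siLoxL2 come from slide 2.

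Across the slides, most genes of the particle were called, most of them higher in siLoxL1 and siLoxL2 than in scr, in a background in which most genes of the array were called as well. In siLoxL1 against scr 21 of the 34 genes were higher and 5 lower, 76.5% in all, against 62.0% of all genes (41.5% higher and 20.5% lower). In siLoxL2 against scr 19 were higher and 4 lower, 67.6%, against 61.1% of all genes (39.4% higher and 21.7% lower). The median of the 34 genes was 0.22 in siLoxL1 against scr and 0.16 in siLoxL2 against scr, beside medians of 0.19 and 0.17 over all genes. Relative to those medians, 20 and 16 of the 34 genes lay higher. In 27 of the 34 genes the groups did not overlap in siLoxL1 against scr (58.2% of all genes) and in 24 in siLoxL2 against scr (57.3% of all genes). The 2 comparisons share the scr arrays and the slide difference, so that one does not repeat the other.

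Markers of other cells differed across the slides as well, where 62.0% of all genes were called in siLoxL1 and 61.1% in siLoxL2 against scr. Of 3 epithelial markers tested, Krt8 and Krt18 were lower in siLoxL1 and in siLoxL2 than in scr and 0 were higher. Of 7 leukocyte markers 3 were higher and 1 lower in siLoxL1, and 4 were higher in siLoxL2. The mean level of those 7 was −0.51 to −0.43 in siLoxL1, −0.34 to −0.26 in siLoxL2 and −1.08 to −0.45 in scr. Of the 9 fibroblast markers 5 were higher and 3 lower in siLoxL1, and 4 higher and 3 lower in siLoxL2. Of 4 endothelial markers 2 were higher and 2 lower in siLoxL1, and 2 higher and 1 lower in siLoxL2, with a mean level of −3.10 to −2.83 in siLoxL1, −2.87 to −2.27 in siLoxL2 and −2.99 to −2.78 in scr. Among the higher ones, Tek was above background on only 7 of 16 arrays and changed sign under 1 of 4 other scalings in each comparison. Their part in these results was not tested.

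The direction of many of these calls depended on the scaling. With quantile normalization 6 genes were higher and 9 lower in siLoxL1 against scr, and 6 higher and 10 lower in siLoxL2 against scr. The 15 and 16 genes called are then a smaller share of the 34 than the 58.2% of all genes called under that scaling in each comparison, whereas the share is larger as reported above. With the 75th percentile taken over the probes above background on all arrays, 14 were higher and 6 lower, and 8 higher and 7 lower. The median of all genes itself was 0.08 and 0.07 with quantile normalization, and −0.07 and −0.09 after normexp background correction. Of the 21 genes called higher in siLoxL1, Psma1, Psma2, Psma3, Psmb6, Psmc5, Psmd1, Psmd2 and Psmd6 changed sign under at least 1 of 4 other scalings. Of the 19 called higher in siLoxL2, Psma2, Psma3, Psma5, Psmb6, Psmc2, Psmd1, Psmd4 and Psmd6 did. In siLoxL1 against scr, Psma7, Psmb2, Psmb4, Psmb5, Psmd7 and Psmd13 were called higher and Psma4, Psmd14 and Psmd5 lower under all 4. In siLoxL2 against scr, Psma7, Psmb2, Psmb4, Psmd7, Psmd8 and Psmd13 were called higher and Psma4, Psma6 and Psmd5 lower under all 4. Of these 4 scalings, quantile normalization and the value table of the authors gave the same numbers of higher and lower genes among the 34. They therefore do not count as separate checks.

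The largest differences across the slides were again those of Psmd7. Its log2 level was 4.63, 4.71, 4.61 and 4.68 in siLoxL1 and 4.42, 4.57, 4.52 and 4.51 in siLoxL2, against the scr levels given above, without overlap. The fold change was 0.87 ± 0.07 in siLoxL1 against scr and 0.72 ± 0.07 in siLoxL2 against scr (limma adjusted p = 2.36e-05 and 8.26e-05). Psmb2 was 2.72, 2.64, 2.73 and 2.65 in siLoxL1 and 2.70, 2.63, 2.69 and 2.73 in siLoxL2, above all scr arrays (0.65 ± 0.08 in each, adjusted p = 0.00028 and 0.00031). These are the 2 genes that were also higher in siLox, with the same scr arrays as the base of each comparison.

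Psma7, a subunit of the alpha ring, had log2 levels of 6.67, 6.56, 6.40 and 6.55 in siLoxL1, against 6.00, 5.97, 5.84 and 5.79 in scr, without overlap (0.65 ± 0.08, limma adjusted p = 0.00020). Psmd13, a lid subunit, had 4.60, 4.94, 4.78 and 4.76 in siLoxL2, against 4.02, 4.25, 4.22 and 4.54 in scr, where scr replicate 4 came close to the siLoxL2 arrays (0.51 ± 0.12, adjusted p = 0.0070). Psmb5 rose on slide 2, to a mean of 7.67 in siLoxL1 and 7.56 in siLoxL2, against 7.20 in scr (0.47 ± 0.05 and 0.36 ± 0.05, adjusted p = 6.56e-05 and 0.00055). With the value table of the authors it stood at 0.15 and 0.08, and the second of these was not called (adjusted p = 0.15). Psmb6 was called higher in both (0.24 ± 0.05 and 0.16 ± 0.06), but turned to −0.09 and −0.12 with quantile normalization, and Psmb7 was lower in siLoxL1 (−0.17 ± 0.06, adjusted p = 0.045) and not called in siLoxL2 (−0.12 ± 0.07, adjusted p = 0.14). The Psmb7 call in siLoxL1 held in 7 of 18 other settings, with an adjusted p between 0.00063 and 0.12, and with one array left out only without scr replicate 1.

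The lower genes across the slides came from several parts of the particle. Psmd5, a chaperone that helps assemble the base, had log2 levels of 3.50, 3.45, 3.51 and 3.62 in siLoxL1 and 3.59, 3.59, 3.68 and 3.60 in siLoxL2, against 3.93, 3.94, 3.97 and 4.07 in scr (−0.46 ± 0.06 and −0.36 ± 0.05, limma adjusted p = 0.00029 and 0.00066). Psmd14, the deubiquitinase of the lid, had 2.96, 2.96, 3.20 and 3.17 in siLoxL1 and 3.21, 3.11, 3.21 and 3.10 in siLoxL2, against 3.35, 3.41, 3.39 and 3.56 in scr (−0.35 ± 0.08 and −0.27 ± 0.06, adjusted p = 0.0064 and 0.0074). After normexp background correction the siLoxL2 difference of Psmd14 was −0.13 and was not called (adjusted p = 0.070). Psma4, of the alpha ring, had 4.13, 4.21, 4.13 and 4.19 in siLoxL1 and 4.15, 4.21, 4.21 and 4.11 in siLoxL2, against 4.48, 4.41, 4.52 and 4.48 in scr (−0.31 ± 0.05 and −0.30 ± 0.05, adjusted p = 0.00099 and 0.0013). For these 3 genes no array of slide 2 reached the lowest scr array. Psmd7 and Psmd14, partners in the lid, thus stood on opposite sides of scr on slide 2.

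**Figure D3:**
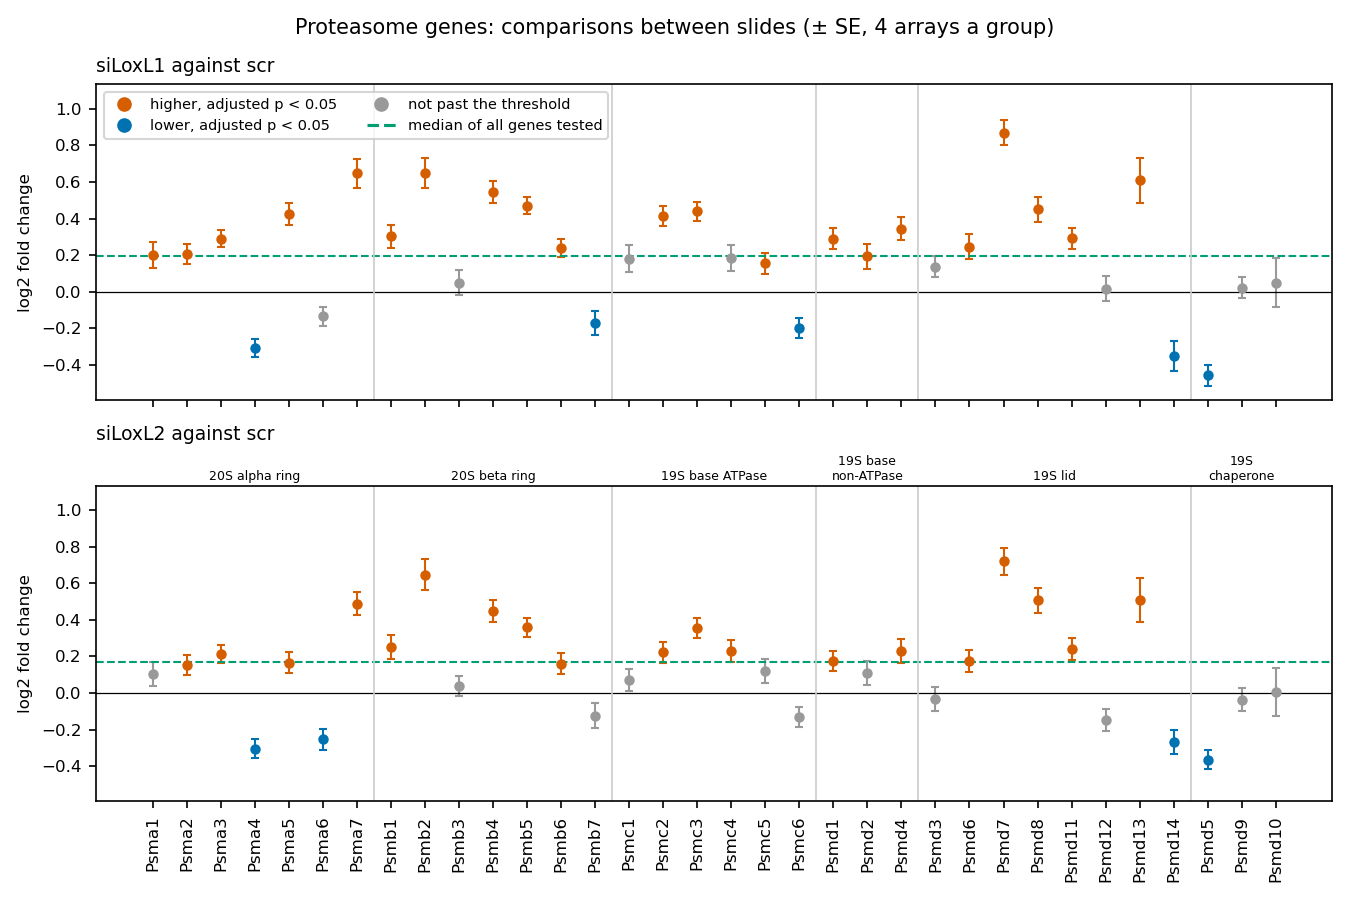
Log2 fold change (± SE, 4 arrays a group) of the 34 detected genes for siLoxL1 against scr (top) and siLoxL2 against scr (bottom); colour marks the limma call and the dashed line is the median of all genes, 0.19 and 0.17. Psmd7 is highest and Psmd5 lowest in both, group and slide cannot be told apart here, and 8 of the higher calls in each panel changed sign under at least 1 other scaling.

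The scr arrays stood apart from all other 12 arrays in a few genes. In Psmb2, Psmc2, Psmd7, Psmd8 and Psmd11 all 4 scr arrays lay below all 12 others, in 5 of 34 genes (14.7%), against 4.33% of all genes. In Psmc6 the scr arrays lay above the 12 others, in 1 of 34 genes, against 2.78% of all genes. For Psmd8 the scr arrays lay between 5.32 and 5.54 and the other 12 between 5.57 and 5.99. For Psmd11 they lay between 3.21 and 3.43, and the other 12 between 3.44 and 3.67. Of these 12 arrays 8 lie on slide 2, so that the counts depend on the scaling between slides and hold for the reported scaling only. In siLoxL2 against scr, Psmc2 and Psmc6 changed sign under at least 1 of 4 other scalings, where the scr arrays cannot stand apart in them. Psmd11 was called under 1 of these 4 in siLoxL1 and in siLoxL2 against scr, and Psmb2 and Psmd7 under all 4. The scr group is the base of 3 of the 4 comparisons, so that a departure of the scr arrays enters all 3.

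Genes with more than 1 probe allow a check within the array. Of the 36 genes 8 had 2 probes and 28 had 1, and 12 of the 44 probes cover a span longer than the probe itself. In siLox against scr the second Psmd10 probe gave 0.55 (limma adjusted p = 0.026 over all probes), where the brighter probe gave 0.35 (0.091 over all probes). The second Psmc2 probe gave 0.25 (0.030), where the brighter gave 0.17 (0.085). For both genes the second probe would have been called and the brighter one was not. Across the slides the probes of Psmd12, a lid subunit, disagreed: in siLoxL1 against scr the brighter gave 0.02 and the other −0.30 (0.85 and 0.0018 over all probes). The probes of Psmd9, a chaperone of the base, gave 0.02 and −0.35 there (0.76 and 0.0061). For Psma4 and Psmb5 both probes were called in the same direction in siLoxL1 and in siLoxL2 against scr.

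The ratio of an interferon-inducible subunit to the standard subunit it replaces passed the test in 9 of 12 comparisons and was lower in each of these, of which 6 lie across the slides and share the scr arrays. Psmb8, the counterpart of Psmb5, fell by 0.43 ± 0.08 in siLox against scr (limma adjusted p = 0.014), and its log2 fold change was −1.24 in siLoxL1 against siLoxL2 (0.011), −4.38 in siLoxL1 against scr and −3.14 in siLoxL2 against scr. The ratio of each such gene to its standard counterpart was compared between groups with exact two-sided permutation tests, 12 in all, whose smallest possible p is 0.0286 (0.0381 after adjustment over the 12). That p is reached whenever the 2 groups do not overlap. Of all single genes, 30.6% did not overlap in siLox against scr and 20.3% in siLoxL1 against siLoxL2. Across the slides 58.2% did not overlap in siLoxL1 against scr and 57.3% in siLoxL2 against scr. Psmb8 over Psmb5 was lower by 0.34 in siLox than in scr and lower by 1.35 in siLoxL1 than in siLoxL2 on the log2 scale, each with the smallest p. Psmb9 over Psmb6 differed by −0.13 in siLox against scr (exact permutation p = 0.057, adjusted p = 0.069) and was lower by 1.18 in siLoxL1 than in siLoxL2 (the smallest p). Psmb10 over Psmb7 differed by −0.11 and −0.20 in these comparisons (exact permutation p = 0.29 and 0.086, adjusted p = 0.29 and 0.094). Across the slides the 3 ratios were lower by 4.85, 4.41 and 1.49 in siLoxL1 than in scr and by 3.50, 3.23 and 1.29 in siLoxL2 than in scr, each with the smallest p. Because each ratio is taken within an array, scaling by a percentile leaves it as it is. Other genes differed as far across the slides: the keratin gene Krt8 was lower by 4.24 in siLoxL1 and by 4.36 in siLoxL2 than in scr and Krt18 by 3.29 and 3.41. The mean level of the 3 epithelial markers detected was −3.04 to −2.77 in siLoxL1, −3.24 to −2.82 in siLoxL2 and −0.66 to −0.29 in scr, and what part they have in the ratios was not tested.

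**Figure D4:**
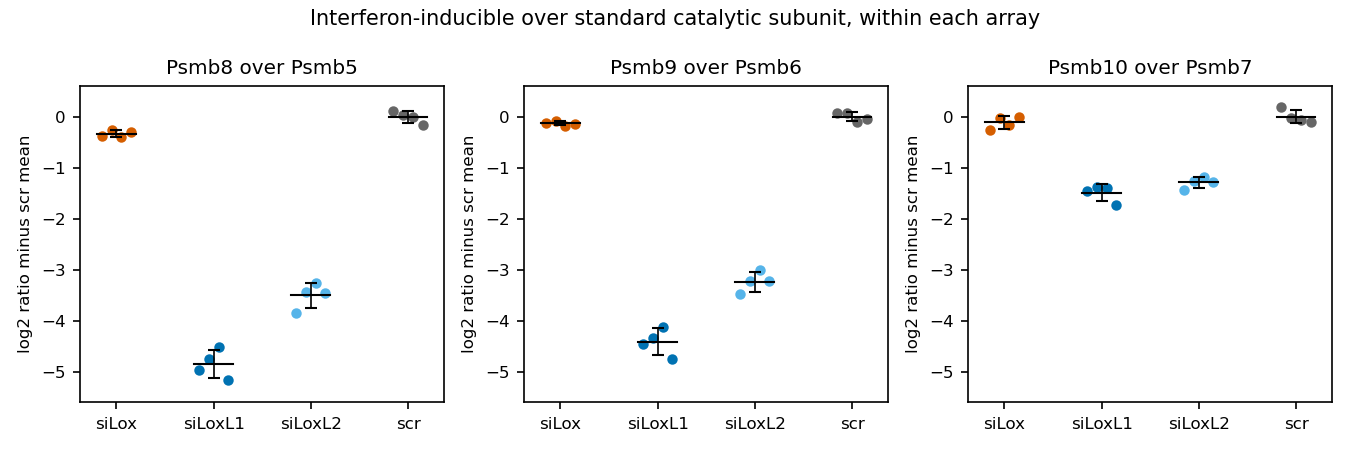
Log2 ratio of each interferon-inducible subunit to the standard subunit it replaces, within each of the 16 arrays and minus the scr mean; points are arrays and bars are mean ± SD (n = 4), on one common axis. Psmb8 over Psmb5 lies lower by 0.34 in siLox, 4.85 in siLoxL1 and 3.50 in siLoxL2 than in scr, and siLoxL1 and siLoxL2 come from another slide than scr.

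Other genes of the pathway were taken from lists of 37 names, of which 34 were on the array and tested. In siLox against scr 2 of the 34 were higher and 4 lower, where 11.5% of all genes were higher and 13.5% lower. The transcription factor gene Nfe2l2 rose by 0.46 ± 0.09 (limma adjusted p = 0.017) and Rad23b, a shuttle that brings ubiquitinated proteins to the proteasome, by 0.34 ± 0.10 (0.043). Besides Psmb8, the activator gene Psme4 fell by 0.31 (0.0497), the deubiquitinase gene Usp14 by 0.19 (0.036) and Ngly1, which processes Nfe2l1, by 0.29 (0.034). Nfe2l1 itself was not called (−0.02 ± 0.08, adjusted p = 0.88). Of 5 chaperones of core assembly and of 6 genes of ubiquitin and its activating enzymes, 0 were called in siLox against scr. Psmb8 kept its call in 17 of 18 other settings, Nfe2l2 in 14, Rad23b in 10, Ngly1 in 9, Usp14 in 6 and Psme4 in 5.

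In siLoxL1 against siLoxL2, 5 of these 34 genes were higher and 2 lower, where 8.80% of all genes were called. The core assembly chaperone gene Psmg3 rose by 0.24, Nfe2l2 by 0.21, Uchl5 by 0.19, Ubqln1 by 0.19 and Usp14 by 0.14 (limma adjusted p between 0.024 and 0.045), and the lower ones were Psmb8 and Psmb9. None of the 5 higher calls held in more than 10 of 18 other settings. In siLoxL1 against scr 17 were higher and 10 lower, and in siLoxL2 against scr 14 were higher and 10 lower, where 62.0% and 61.1% of all genes were called. Pomp, which matures the new core, rose by 0.65 and 0.64, and Ufd1, a cofactor of the p97 segregase, by 0.64 and 0.48. The Ufd1 calls were lost in 1 of 18 other settings (limma adjusted p = 0.87 and 0.88). All 4 genes of the activators and the inhibitor of the core were lower in siLoxL1 than in scr, and 3 of the 4 in siLoxL2, with Psme1 at −0.70 and −0.46 and Psme3 at −0.51 and −0.62. Under 4 other scalings Pomp, Ufd1, Psme1 and Psme3 did not change sign in either comparison.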

How the data were processed

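Per the file headers, the scanner files hold intensity values from Agilent Feature Extraction 10.7.3.1, which had subtracted the background and detrended the signal of each array, with deposited flags of 0 or 1 per spot. The deposited value table holds log2 values of the same arrays, with nearly equal sorted columns. It served as an alternative, and it correlated with the log2 scanner signal on each array (r above 0.999), while how it was made is not given in the sources used.

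From the intensities, log2 values relative to the 75th percentile of each array were taken. A probe was kept when at least 1 group had it flagged as above background on its 4 arrays. Where a gene had several such probes, the brightest was used. Symbols were updated by RefSeq accession (28026 of 55681 probes matched). Each comparison was fitted with limma 3.58.1 (R 4.3.3) on its own 8 arrays, with Benjamini-Hochberg adjustment over 22644 genes and a threshold of 0.05. A fit of 16 arrays would share 1 spread over slides of unequal spread. The 2 comparisons across the slides still share 1 spread (median SD over all genes 0.167 in scr, 0.0928 in siLoxL1 and 0.0899 in siLoxL2). The fits within a slide do not. The fit was tested on simulated data.

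Members, roles and pathway lists were chosen with earlier results of these data known. Values per array are given for the 3 protease subunits and for the called genes with the largest changes, up to 5 each way within a slide and 3 across slides. Pathway genes were named when called, up to 4 a list. Genes named for a change of sign, a second probe, an overlap or a miss of the threshold, and Nfe2l1, were named after their values were seen. Replicate numbers were not taken as pairs. The alternatives changed the samples fitted, background correction, scaling, filter, probe rule, block and replicates.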

Additional observations from a re-analysis of the deposited data

Results flagged for a closer look

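Among the 34 genes in 4 groups, 10 of 136 sets of 4 arrays held 1 array far from the other 3 (a gap to the nearest array above Dixon's critical value). Chance flags about 1 in 20 sets. All values are log2 levels. In siLox, replicate 1 stood apart in 3 genes, low in Psmc3 (6.72, others 6.91 to 6.94) and Psmd1 (5.52, others 5.61 to 5.62) and high in Psmd3 (6.47, others 6.28 to 6.30). In siLoxL1, replicate 2 was low in Psmb3 (6.42, others 6.63 to 6.64) and replicate 1 in Psmd12 (5.77, others 5.92 to 5.95). In siLoxL2, replicate 3 was high in Psma6 (4.84, others 4.71 to 4.73) and Psmd5 (3.68, others 3.59 to 3.60), replicate 2 was low in Psmd12 (5.66, others 5.75 to 5.76), and replicate 4 was high in Psmd9 (2.13, others 1.93 to 1.94). In scr, replicate 4 was low in Psma2 (6.82, others 6.93 to 6.94).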

How the results depend on the processing

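In siLox against scr, the 4 calls became 12 with all 16 arrays in the fit, 7 after normexp, 2 with no detection filter, and 1 to 7 with an array left out. The 5653 calls over all genes became 9746 with all 16 arrays, 2969 with no filter and 1830 to 7829 with an array left out. The median of the members turned to 0.020 with quantile normalization and 0.019 with the value table of the authors. In siLoxL1 against scr, quantile normalization and the value table gave 15 calls, and no filter gave 21473 calls over all genes. The median was −0.066 with quantile normalization, −0.068 with the value table, 0.34 after normexp and 0.091 with the percentile over detected probes. In siLoxL2 against scr, that percentile gave 15 calls and a median of 0.069, quantile normalization a median of −0.069, the value table −0.070, normexp 0.26, and no filter 20788 calls over all genes. Psmb6 turned to −0.087 in siLoxL1 and −0.12 in siLoxL2 against scr with quantile normalization and the value table. In siLoxL1 against siLoxL2, the 2 calls became 1 with quantile normalization, the percentile over detected probes, the value table or the mean of probes, 0 with no filter (9 at an unadjusted p under 0.05), 0 without replicate 4 of both groups (5 unadjusted), and 0 to 3 with an array left out. Over all genes 1993 calls became 905 with all 16 arrays, 647 with no filter, 166 without replicate 4 of both groups and 609 to 1412 with an array left out. The median became 0.027 with quantile normalization and the value table and 0.040 with the percentile over detected probes. The cause of these shifts was not tested.

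With the replicate number as a block, 0 of the 34 genes (4 at an unadjusted p under 0.05) and 3 of all genes passed in siLox against scr by limma, 21 and 18 of the 34 in siLoxL1 and siLoxL2 against scr, and 1 of the 34 and 853 of all genes in siLoxL1 against siLoxL2, where Psma5 kept its call (adjusted p = 0.045) and Psmc2 lost it (0.060). The numbers share no stated origin. Same-numbered siLox and scr arrays correlated at −0.19 to −0.0021. In siLoxL1 against siLoxL2 same-numbered arrays correlated at 0.043 to 0.22, each best with its own number, which is a hint from the data and not the design. The precision of every value is limited by 4 arrays a group. The signal of all 34 genes was above background on all arrays, but the background correction still moved values: in siLoxL1 against scr Psmc6 was −0.034 after normexp and −0.20 as reported.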
